A study of Arabidopsis thaliana with 9 samples.

Results

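The auxin response and transport genes were 38 Arabidopsis thaliana loci, taken by locus identifier from a fixed list and found among the 33557 loci of both deposited expression tables. They comprised 24 Aux/IAA repressor genes and 6 GH3 genes, together the 30 response genes, and 5 PIN and 3 AUX/LAX genes, together the 8 carriers. Membership rested on gene family, with no cut on a measured value. The list was drawn up with earlier results of these data known, and it does not hold every gene of these families. Whole seedlings of ecotype Col-0, grown for 14 days on solid half-strength MS medium, were given liquid medium for 12 h in the light, and polyA RNA was sequenced on an Ion Torrent Proton instrument. The 3 groups of 3 biological replicates were wild-type seedlings given 25 µg/ml doxycycline (DOX), seedlings of the mutant mrpl1-1 given medium without the drug, and wild-type seedlings given the same medium without the drug. Doxycycline blocks translation on bacterial-type ribosomes, which mitochondria and plastids have. The title of the series concerns impaired mitochondrial translation. The labels do not name the locus or the kind of mutation of mrpl1-1.

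Auxin is perceived by TIR1/AFB receptors, which in its presence mark Aux/IAA repressors for degradation and so free ARF transcription factors to act on promoters with auxin response elements. Most Aux/IAA genes and several GH3 genes are themselves induced through this route, the first feeding back as repressors and the second as enzymes that join auxin to amino acids. PIN proteins carry auxin out of cells and AUX/LAX proteins carry it in, and in seedlings their placement sets the flow of auxin through the root tip and the vasculature. In Arabidopsis, auxin signalling and mitochondrial retrograde signalling have been described as opposing each other. The comparisons below asked whether the response genes and the carriers differed with doxycycline, in mrpl1-1, and between these groups.

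Levels are given as FPKM, fragments scaled to transcript length and sequencing depth. The mutant table was on a slightly different scale, so its columns were divided by 0.94058, the median factor between the wild-type columns of the tables, and all levels below are on this common scale. Depth, estimated from the spacing of low FPKM values, was 5.26 to 6.94 M reads on genes with doxycycline, 3.27 to 7.42 M in mrpl1-1 and 3.14 to 8.13 M in wild type. At that depth 1 read on a 1-kb transcript was worth 0.138 to 0.366 FPKM. Of the libraries, mrpl1-1 replicate 2 led the first principal component (23.9% of the variance) and wild-type replicate 3 the second (20.1%). MRPL1, the gene that the mutant's name points to by background knowledge, had 20.8, 12.8 and 19.8 FPKM in mrpl1-1 and 20.7, 19.1 and 26.7 FPKM in wild type, so its transcript level did not check the label.

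The sequences upstream of the genes were read first, because auxin response elements, the letters that ARF factors bind, are known from Aux/IAA and GH3 promoters. In the 250 bases before each annotated gene start (RefSeq annotation of TAIR10.1), the element TGTCTC, searched on both strands and thus also as GAGACA, was found in 11 of 38 members (28.9%), against 3004 of 27443 protein-coding genes (10.9%). The variant TGTCGG, also searched as CCGACA, was found in 7 of 38 members (18.4%), against 4.16% of protein-coding genes. The classes differed in their counts: TGTCTC stood in 7 of 24 Aux/IAA genes, 3 of 6 GH3 genes, 1 of 5 PIN genes and none of 3 AUX/LAX genes. TGTCGG stood in 6 Aux/IAA genes and 1 AUX/LAX gene. A match is a run of letters and not a shown binding site.

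The windows of 6 members are printed 5′ to 3′ on the strand of the gene, with both elements in capitals. IAA1, IAA17, GH3.5, GH3.6 and PIN7 are the genes whose levels are described most closely below, and IAA19 is the member with most copies of TGTCTC.
IAA1 (chr4:8360746-8360995, plus strand): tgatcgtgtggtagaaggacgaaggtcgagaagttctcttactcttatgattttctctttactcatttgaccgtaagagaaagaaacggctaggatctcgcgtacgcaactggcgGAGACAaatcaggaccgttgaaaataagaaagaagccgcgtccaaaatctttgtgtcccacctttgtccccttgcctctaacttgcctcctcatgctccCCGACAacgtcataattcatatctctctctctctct
IAA17 (chr1:1135828-1136077, plus strand): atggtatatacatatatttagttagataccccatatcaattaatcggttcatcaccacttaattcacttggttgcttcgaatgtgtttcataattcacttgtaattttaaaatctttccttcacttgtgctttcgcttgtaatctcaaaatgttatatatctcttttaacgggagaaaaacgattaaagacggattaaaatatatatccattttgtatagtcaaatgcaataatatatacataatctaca
IAA19 (chr3:5263751-5264000, plus strand): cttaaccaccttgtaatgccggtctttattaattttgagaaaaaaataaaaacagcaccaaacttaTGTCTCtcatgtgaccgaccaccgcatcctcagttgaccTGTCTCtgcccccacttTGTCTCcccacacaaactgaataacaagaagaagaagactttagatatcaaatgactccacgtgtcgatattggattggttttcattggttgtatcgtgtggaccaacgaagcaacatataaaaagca
GH3.5 (chr4:13653329-13653578, plus strand): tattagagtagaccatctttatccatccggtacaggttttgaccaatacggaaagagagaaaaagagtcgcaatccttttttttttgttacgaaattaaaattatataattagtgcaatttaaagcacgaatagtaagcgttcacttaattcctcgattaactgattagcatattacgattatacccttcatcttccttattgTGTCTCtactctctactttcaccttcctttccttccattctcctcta
GH3.6 (chr5:22133689-22133938, minus strand): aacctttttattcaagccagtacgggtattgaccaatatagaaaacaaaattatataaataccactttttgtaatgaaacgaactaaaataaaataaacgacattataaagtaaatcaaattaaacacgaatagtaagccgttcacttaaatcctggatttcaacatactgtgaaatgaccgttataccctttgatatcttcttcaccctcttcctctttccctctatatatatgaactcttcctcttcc
PIN7 (chr1:8183651-8183900, minus strand): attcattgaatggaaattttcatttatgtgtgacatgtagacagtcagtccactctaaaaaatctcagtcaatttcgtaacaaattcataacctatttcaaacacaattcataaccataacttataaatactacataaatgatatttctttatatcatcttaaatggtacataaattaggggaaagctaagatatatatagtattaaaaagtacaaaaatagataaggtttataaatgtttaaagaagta
IAA19 held 3 copies of TGTCTC, within 184 bases of the start. IAA1 held 1 copy of each element, both on the opposite strand, 36 and 135 bases upstream. GH3.5 held 1 TGTCTC whose first base lay 47 bases upstream. No copy of either element lay in the windows printed for IAA17, GH3.6 and PIN7.

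The listed genes of the classes differed widely in level, as the plot of levels in every library shows. In wild type the 24 Aux/IAA genes had a median of 13.7 FPKM and ran from 0.448 to 160.9 FPKM, with 4 genes at 100 FPKM or more. The 6 GH3 genes had a median of 6.38 FPKM and none passed 12.4 FPKM. The 5 PIN genes had a median of 51.8 FPKM and the 3 AUX/LAX genes one of 21.4 FPKM. These medians cover the listed genes and not the whole families. Outside the list, PIN5, PIN6 and PIN8 averaged 3.31, 2.78 and 0 FPKM in wild type, and LAX1 averaged 32.8 FPKM. IAA15, IAA31, IAA32, IAA33 and IAA34, also outside it, averaged 0 to 0.473 FPKM. FPKM is already per length, so these levels can be set beside each other across genes.

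**Figure D1:**
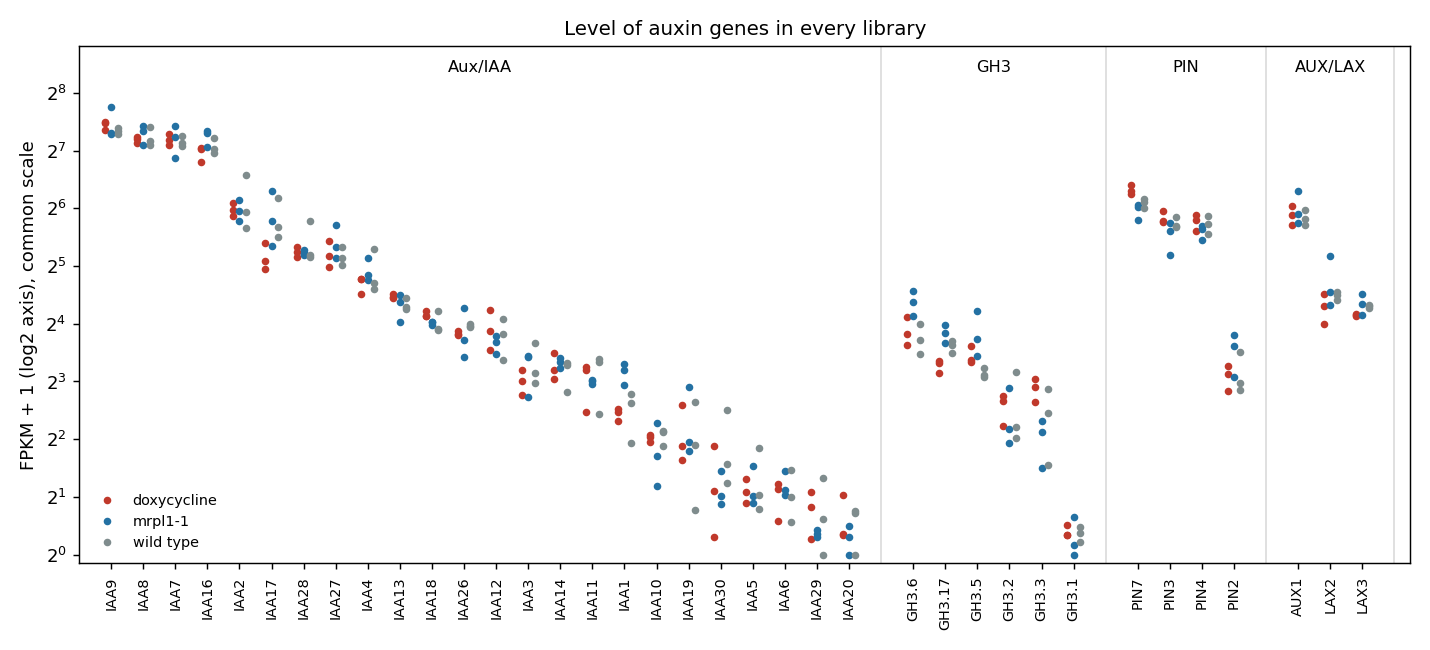
FPKM + 1 of the auxin genes, 1 gene left out, in each of the 9 libraries on a log2 axis, by class and in falling order of the wild-type mean; points are libraries, coloured for doxycycline, mrpl1-1 and wild type. Aux/IAA genes span from 0.448 to 160.9 FPKM in wild type, and for most genes the points of the 3 groups lie among each other.

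IAA9 and IAA8, Aux/IAA repressors expressed broadly in the seedling, were the most abundant members. IAA9 had 176.8, 163.1 and 180.0 FPKM with doxycycline, 155.6, 215.6 and 156.5 FPKM in mrpl1-1 and 161.0, 154.4 and 167.3 FPKM in wild type. IAA8 had 145.5, 149.5 and 138.9 FPKM with doxycycline, 161.1, 170.8 and 136.3 FPKM in mrpl1-1 and 136.4, 143.2 and 169.3 FPKM in wild type. The groups overlapped for both genes, and mrpl1-1 replicate 2 was the highest library of each. IAA7 and IAA16 followed at 142.1 ± 9.12 and 133.4 ± 13.1 FPKM in wild type (SD, n = 3). At the other end, IAA20, IAA29 and GH3.1 averaged 0.398, 0.553 and 0.280 FPKM over the 9 libraries and were not tested, because the minimum was a mean of 1 FPKM. These 3 genes held all 4 values listed at 0 among the 38 members. The other 35 members, 27 response genes and all 8 carriers, were tested.

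With doxycycline no auxin response gene and no carrier passed the test against wild type (limma over 19073 genes, adjusted p under 0.05, which 0.184% of all genes passed). The smallest adjusted p among the members was 0.483. At an unadjusted p under 0.05 there was 1 member higher and 2 lower of 35, against 3.84% and 4.65% of all genes. There was a gap between the groups, with no replicate overlapping, for 2 members higher (8.51% of all genes) and 4 lower (7.48%). The median log2 fold change of the members was -0.02, between -0.68 and 0.57, beside 0.0025 for all genes, and 16 members lay above 0, as did 50.4% of all genes. The 95% interval of the fold change lay within 1 log2 unit on either side of 0 for 31 of the 35 members, as for 85.5% of all genes, so a change of 1 log2 unit lay outside the interval of those 31. All fold changes from the fit are on the log2(FPKM + 1) scale, which shrinks differences of genes at low FPKM.

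Among the Aux/IAA genes, 8 lay above 0 and 14 below it with doxycycline, with a median of -0.04. IAA17 (AXR3, AT1G04250, chromosome 1, 1136078 to 1138663, 5 exons), a repressor whose stabilised form alters root hairs and root gravitropism, had 41.4, 29.8 and 33.0 FPKM with doxycycline, 54.3, 78.2 and 39.5 FPKM in mrpl1-1 and 44.2, 50.0 and 71.3 FPKM in wild type. All libraries with the drug lay below all wild-type libraries. The means were 34.7 ± 5.99 FPKM with doxycycline and 55.1 ± 14.3 FPKM in wild type (SD, n = 3 each), a log2 difference of -0.64 (SE 0.20) that missed the threshold (limma, adjusted p = 0.483). Wild-type replicate 3 was the highest control, and without it the value was -0.44 (adjusted p = 0.343).

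Of 10 markers of root tissue tested in the same comparison 1 was called lower, where 0.184% of all genes were called in either direction. It was RHS13 of the root hair (log2 fold change -1.67, SE 0.12, adjusted p = 0.00582 by limma). At an unadjusted p under 0.05 there were 6 lower, against 4.65% of all genes. Besides RHS13 these were LRX1 (-1.22), EXPA7 (-0.72), EXPA18 (-1.10), COBL9 (-1.13) and TIP2;3 (-1.67). SCR, SHR, GL2 and CASP1, markers of other root tissues and of the epidermis, lay at 0.20, -0.10, -0.24 and -0.28 with overlapping groups. The summed level of the 11 listed markers was 88.1 to 99.8 FPKM with doxycycline, against 168.3 to 186.2 FPKM in wild type, and RHS13 alone averaged 18.7 ± 2.05 FPKM with doxycycline and 61.5 ± 4.48 FPKM in wild type (SD, n = 3 each). WER, of the root epidermis, was listed at 0 in doxycycline replicate 3 and detected in every other library. The summed level of 8 markers of photosynthetic tissue was 22950 to 25580 FPKM with doxycycline and 24300 to 25300 FPKM in wild type. In whole seedlings fewer cells of a type and less RNA per cell cannot be told apart, and the part of the root markers in the levels of IAA17 and of the members below was not tested.

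IAA30, which lacks the degron that most Aux/IAA proteins carry, had 1.14, 0.237 and 2.68 FPKM with doxycycline and 1.37, 1.96 and 4.68 FPKM in wild type. These groups overlapped, and the value of -0.68 (SE 0.47, limma, adjusted p = 0.733) rested on an estimated 1.27 to 11.5 reads per library. Without wild-type replicate 3 it was -0.31, and without doxycycline replicate 2 it was -0.28. IAA13 had 20.7, 21.9 and 21.1 FPKM with doxycycline and 18.1, 20.8 and 18.5 FPKM in wild type, a log2 fold change of 0.15 (SE 0.11, limma, adjusted p = 0.742). IAA26, picked after seeing its values, was the other Aux/IAA gene without overlap, at 13.3 ± 0.325 FPKM with doxycycline and 14.6 ± 0.224 FPKM in wild type (SD, n = 3 each).

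**Figure D2:**
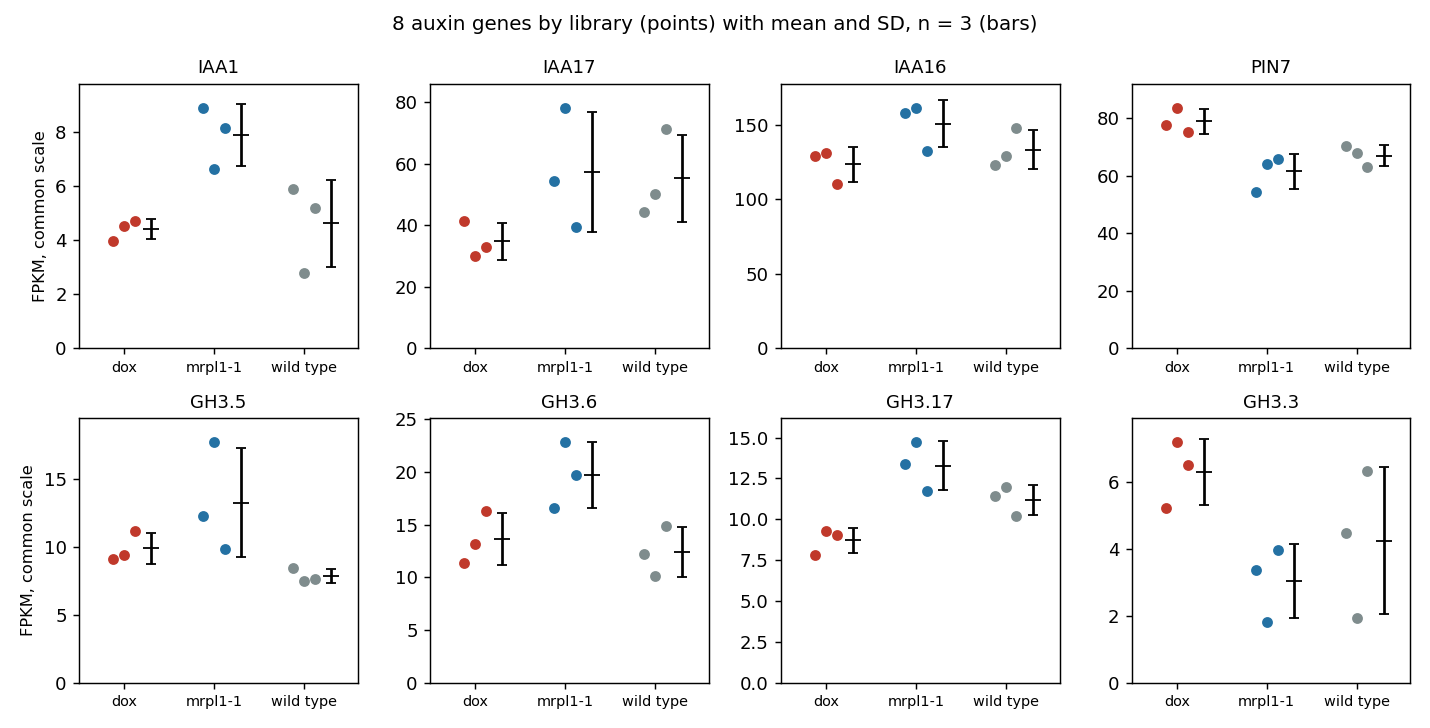
FPKM of 8 auxin genes in every library (points) with the group mean and SD (bars, n = 3) for doxycycline, mrpl1-1 and wild type; each axis starts at 0. IAA17 with doxycycline lies at 29.8 to 41.4 FPKM, under the wild-type libraries, and GH3.6 in mrpl1-1 lies at 16.6 to 22.8 FPKM, over the wild-type libraries.

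The GH3 enzymes showed gaps in both directions with doxycycline, and none passed the test. GH3.17 (AT1G28130, chromosome 1, 9825169 to 9828118), which joins auxin to glutamate, had 7.83, 9.26 and 9.03 FPKM with doxycycline and 11.4, 12.0 and 10.2 FPKM in wild type. All treated libraries lay below all controls, at a log2 fold change of -0.33 (SE 0.13, limma, adjusted p = 0.561). GH3.5 (WES1), which acts on auxin and salicylate, had 9.10, 9.39 and 11.2 FPKM with doxycycline and 8.45, 7.48 and 7.68 FPKM in wild type. Here all treated libraries lay above the controls, at 0.29 (SE 0.13, limma, adjusted p = 0.606). The family's median was 0.13 over 5 tested genes, of which 4 lay above 0.

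Among the carriers 4 lay above 0 and 4 below it with doxycycline, with a median of 0.01. PIN7 (AT1G23080, chromosome 1, 8180189 to 8183650), an efflux carrier of the root tip and stele, had 77.7, 83.6 and 75.3 FPKM with doxycycline and 70.2, 67.7 and 62.9 FPKM in wild type. The groups did not overlap, and the log2 fold change was 0.23 (SE 0.10, limma, adjusted p = 0.587). LAX3, an influx carrier known from the emergence of lateral roots, had 16.5, 16.9 and 16.8 FPKM with doxycycline and 19.0, 18.4 and 18.8 FPKM in wild type. This gap was small, at -0.15 (SE 0.10, limma, adjusted p = 0.702). The remaining carriers described here overlapped between the groups.

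In mrpl1-1 no member passed the test against wild type either (limma over 18994 genes, which 0.0369% of all genes passed). The smallest adjusted p was 0.931, a value shared by many genes. At an unadjusted p under 0.05 there were 3 members higher and none lower, against 2.83% and 1.63% of all genes. The groups likewise did not overlap for 3 members higher and none lower, against 5.09% and 5.04% of all genes. The members' median was 0.03, between -0.65 and 0.69, beside -0.000811 for all genes, and 20 of 35 lay above 0, as did 49.9% of all genes. The interval lay within 1 log2 unit of 0 for 28 of 35 members, and for 77.2% of all genes.

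The 3 members with a gap were IAA1, GH3.5 and GH3.6, all higher in mrpl1-1. IAA1 (AT4G14560, chromosome 4, 8360996 to 8362033, 2 exons), an early auxin-induced repressor, had 8.92, 6.66 and 8.16 FPKM in mrpl1-1 and 5.89, 2.80 and 5.20 FPKM in wild type. The log2 fold change was 0.69 (SE 0.26, limma, adjusted p = 0.931), and without wild-type replicate 2 it was 0.43. With doxycycline IAA1 had 3.99, 4.54 and 4.72 FPKM, which lay within the wild-type range.

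GH3.6 (DFL1, AT5G54510, chromosome 5, 22130964 to 22133688), an auxin-conjugating enzyme whose overexpression shortens shoot and lateral root growth, had 16.6, 22.8 and 19.7 FPKM in mrpl1-1 and 12.2, 10.1 and 14.9 FPKM in wild type. The log2 fold change was 0.63 (SE 0.20, limma, adjusted p = 0.931), with a range of 0.50 to 0.77 over the alternatives run. GH3.5 (AT4G27260, chromosome 4, 13653579 to 13656285) had 12.3, 17.7 and 9.82 FPKM in mrpl1-1 and 8.45, 7.48 and 7.68 FPKM in wild type. Its value was 0.64 (SE 0.23, limma, adjusted p = 0.931), and 0.43 without mrpl1-1 replicate 2.

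Both GH3 genes were highest in mrpl1-1 replicate 2, the library that stood apart. That library was the highest of the 9 for 11 of the 35 members, 10 of them response genes, as it was for 24% of all genes. The photosynthetic markers summed to 36840, 44650 and 23000 FPKM in mrpl1-1 replicates 1 to 3, against 24300 to 25300 FPKM in wild type, and the root markers to 243.1, 291.7 and 170.5 FPKM, against 168.3 to 186.2 FPKM. Of the 8 photosynthetic genes 5 lay above 0 and 3 below it. The largest terms of their sum were RBCS1A, at 15068, 18418 and 8884 FPKM in mrpl1-1 and 10248, 8882 and 11592 FPKM in wild type, and CAB1, at 14881, 19034 and 7010 FPKM in mrpl1-1 and 7865, 9456 and 6212 FPKM in wild type. RCA had 1818, 1423 and 2448 FPKM in mrpl1-1 and 2397, 1997 and 2297 FPKM in wild type. Of the 11 root markers 10 lay above 0 and 1, TIP2;3, below it. The largest term of their sum was RHS13, at 96.3, 157.0 and 62.0 FPKM in mrpl1-1 and 57.1, 61.4 and 66.1 FPKM in wild type. TIP2;3 had 4.77, 9.32 and 2.34 FPKM in mrpl1-1 and 8.20, 15.7 and 10.7 FPKM in wild type. No marker of either list was called in this comparison. The part of these markers in the GH3 and IAA1 values was not tested.

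Among the remaining members named in mrpl1-1, IAA30 had 1.02, 1.74 and 0.833 FPKM in mrpl1-1 and 1.37, 1.96 and 4.68 FPKM in wild type, a log2 fold change of -0.65 (SE 0.37, limma, adjusted p = 0.931). IAA27 had 39.0, 51.2 and 34.1 FPKM in mrpl1-1 and 34.1, 31.5 and 39.1 FPKM in wild type, at 0.23 (SE 0.20, limma, adjusted p = 0.931). The groups overlapped for both genes, and the values were -0.29 for IAA30 without wild-type replicate 3 and 0.07 for IAA27 without mrpl1-1 replicate 2. PIN2, the efflux carrier of the root epidermis and cortex, had 12.9, 7.48 and 11.3 FPKM in mrpl1-1 and 6.21, 10.4 and 6.85 FPKM in wild type. PIN3, which shifts in root gravity sensing, had 47.8, 35.6 and 52.6 FPKM in mrpl1-1 and 56.5, 50.3 and 50.5 FPKM in wild type. Both overlapped between the groups, at 0.39 (SE 0.26) and -0.22 (SE 0.19), with limma adjusted p = 0.931 for each. Without mrpl1-1 replicate 2 they were 0.59 and -0.06.

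**Figure D3:**
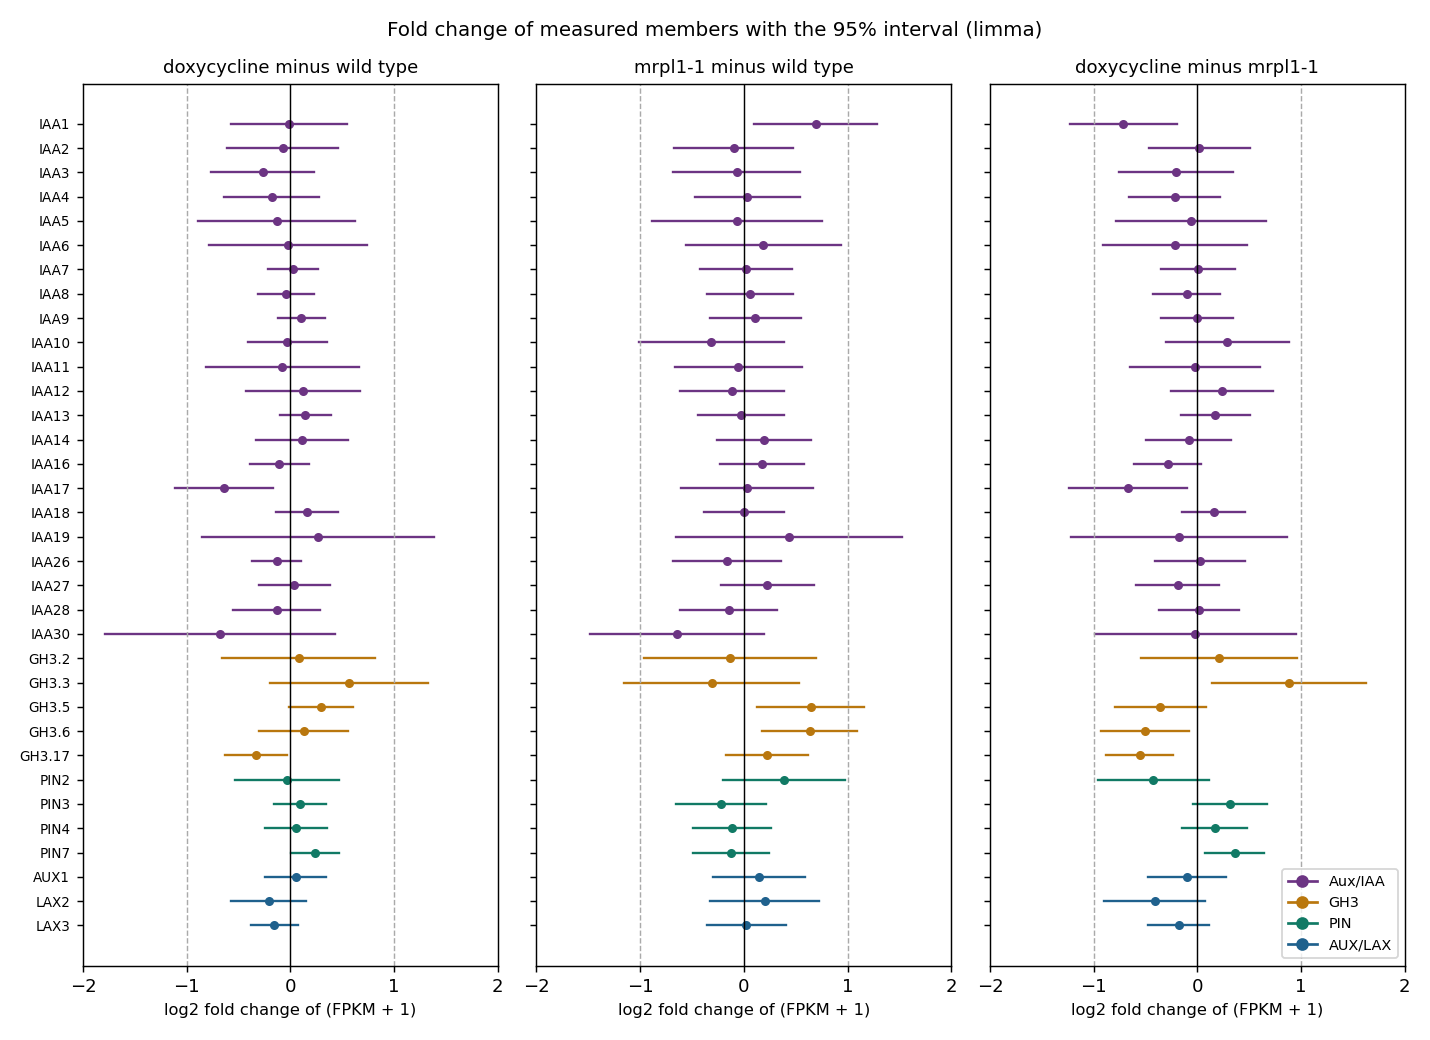
Log2 fold change of FPKM + 1 with its 95% interval for the measured members, 1 gene left out, in 3 panels for doxycycline minus wild type, mrpl1-1 minus wild type and doxycycline minus mrpl1-1; dashed lines mark 1 log2 unit. Of all 35 measured members the intervals lie within the dashed lines for 31, 28 and 31, and no member passed the adjusted threshold.

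Setting doxycycline directly against mrpl1-1 also tests whether the responses of a gene to the drug and to the mutation differed, since wild type is shared. No member passed this test (limma over 19105 genes, which 0.366% of all genes passed), and the smallest adjusted p was 0.170. At an unadjusted p under 0.05 there were 2 members higher and 4 lower with doxycycline, against 4.7% and 6.53% of all genes. Groups did not overlap for 4 members higher and 4 lower, against 9.72% and 9.29% of all genes. The members' median was -0.08, between -0.71 and 0.88, beside 0.01 for all genes. There were 13 of 35 members above 0, against 51% of all genes, and 31 of 35 intervals lay within 1 log2 unit of 0, beside 79.1% of all genes.

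Of the members, GH3.17 held the smallest p in this comparison. GH3.17 had 7.83, 9.26 and 9.03 FPKM with doxycycline, against 13.4, 14.7 and 11.7 FPKM in mrpl1-1, a log2 fold change of -0.55 (SE 0.15, limma, adjusted p = 0.170). Wild type lay between the group means, at 11.2 ± 0.957 FPKM (SD, n = 3). Over the alternatives its adjusted p ran from 0.0938 to 0.533.

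GH3.6 had 11.4, 13.2 and 16.3 FPKM with doxycycline and 16.6, 22.8 and 19.7 FPKM in mrpl1-1, at -0.51 (SE 0.19, limma, adjusted p = 0.364). GH3.3, a gene of the same enzyme family picked after seeing its values, lay the other way. It had 5.23, 7.20 and 6.51 FPKM with doxycycline, 3.38, 1.83 and 3.97 FPKM in mrpl1-1 and 4.50, 1.94 and 6.33 FPKM in wild type, and its log2 fold change between doxycycline and mrpl1-1 was 0.88 (SE 0.33, limma, adjusted p = 0.368). The GH3 genes thus lay on both sides of 0, with 2 above and 3 below.

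Of the Aux/IAA genes, IAA1 was lower with doxycycline than in mrpl1-1 without overlap, at -0.71 (SE 0.23, limma, adjusted p = 0.279). IAA16, a close relative of IAA7 and IAA17, had 129.3, 131.3 and 110.0 FPKM with doxycycline, 158.1, 161.6 and 132.5 FPKM in mrpl1-1 and 122.9, 129.2 and 148.1 FPKM in wild type. The doxycycline and mrpl1-1 libraries did not overlap, at -0.28 (SE 0.15, limma, adjusted p = 0.505). IAA18, picked after seeing its values, lay the other way, also without overlap. It had 16.5, 17.7 and 16.6 FPKM with doxycycline and 15.3, 15.3 and 14.7 FPKM in mrpl1-1, at 0.16 (SE 0.14, limma, adjusted p = 0.688). IAA17 overlapped between doxycycline and mrpl1-1 through mrpl1-1 replicate 3, at -0.67 (SE 0.26, limma, adjusted p = 0.375), and without mrpl1-1 replicate 2 the value was -0.42.

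Of the carriers, PIN7 and PIN3 lay above mrpl1-1 without overlap. PIN7 had 77.7, 83.6 and 75.3 FPKM with doxycycline and 54.4, 64.1 and 65.8 FPKM in mrpl1-1, at 0.36 (SE 0.13, limma, adjusted p = 0.329). PIN3 had 54.0, 61.0 and 53.0 FPKM with doxycycline and 47.8, 35.6 and 52.6 FPKM in mrpl1-1, at 0.31 (SE 0.16, limma, adjusted p = 0.498), and at 0.15 without mrpl1-1 replicate 2. The other abundant carriers overlapped. AUX1, the influx carrier of the root cap and epidermis, had 51.7, 65.1 and 58.3 FPKM with doxycycline, 78.2, 59.0 and 52.4 FPKM in mrpl1-1 and 55.2, 61.9 and 51.6 FPKM in wild type. LAX2, expressed in the vasculature, had 14.9, 18.7 and 22.0 FPKM with doxycycline, 22.5, 35.2 and 19.0 FPKM in mrpl1-1 and 20.2, 22.5 and 21.6 FPKM in wild type. The root markers summed to 88.1 to 99.8 FPKM with doxycycline and 170.5 to 291.7 FPKM in mrpl1-1. RHS13 alone had 16.8 to 20.9 FPKM with doxycycline and 62.0 to 157.0 FPKM in mrpl1-1. Of the 11 root markers 5 were called lower with doxycycline than in mrpl1-1, where 0.366% of all genes were called in either direction. By direction 10 lay below 0 and 1 above it. The part of the root markers in the values of these members was not tested.

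Response genes and carriers were then set against each other. Per library, the median log2(FPKM + 1) of the 27 measured response genes minus that of the 8 carriers was -1.30, -1.55 and -1.21 with doxycycline, -1.30, -1.22 and -1.35 in mrpl1-1 and -1.39, -1.41 and -1.54 in wild type. The means were -1.35 ± 0.177 with doxycycline, -1.29 ± 0.0652 in mrpl1-1 and -1.45 ± 0.0848 in wild type (SD, n = 3 each). The doxycycline libraries overlapped wild type, while the mrpl1-1 libraries lay above it. The median log2 fold changes in mrpl1-1 against wild type did not show this shift, at 0.02 for response genes and 0.03 for carriers. No test was run on the difference of class medians, because the genes were chosen with results of these libraries known.

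The median log2 fold changes were as follows, with no test between families. With doxycycline against wild type the response genes had a median of -0.02 and the carriers one of 0.01. In mrpl1-1 against wild type they had 0.02 and 0.03, and with doxycycline against mrpl1-1 they had -0.06 and -0.14. By family, the medians with doxycycline against wild type were -0.04 for Aux/IAA, 0.13 for GH3, 0.05 for PIN and -0.15 for AUX/LAX. In mrpl1-1 against wild type they were 0.01 for Aux/IAA, 0.22 for GH3, -0.11 for PIN and 0.15 for AUX/LAX. With doxycycline against mrpl1-1 they were -0.04, -0.36, 0.17 and -0.18 in the same order. These medians rest on 22, 5, 5 and 3 genes. The difference between response genes and carriers, -0.028 with doxycycline and -0.008 in mrpl1-1, became 0.142 and 0.21 without wild-type replicate 3.

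That library stood differently in the classes. Wild-type replicate 3 was the highest of the wild-type libraries for 15 of 22 Aux/IAA genes and 3 of 5 GH3 genes, but for none of the 8 carriers, while it was the highest for 41.3% of all genes. Examples are IAA2, with 59.9, 49.4 and 95.0 FPKM in wild type, and IAA28, with 35.6, 34.5 and 54.2 FPKM. Both were picked after their values were seen. With doxycycline these genes had 57.2 to 67.5 and 34.7 to 39.3 FPKM, and in mrpl1-1 53.7 to 69.8 and 35.4 to 37.6 FPKM. Wild-type replicate 3 was also the shallowest of the 9 libraries, at an estimated 3.14 M reads, and the part of depth in its levels was not tested.

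The class sums show the same libraries. The 24 Aux/IAA genes summed to 901.3, 889.8 and 864 FPKM with doxycycline, 936.6, 1069 and 864.3 FPKM in mrpl1-1 and 858.1, 861.9 and 1033 FPKM in wild type. The GH3 genes summed to 39.1, 45.0 and 47.1 FPKM with doxycycline, 52.8, 60.5 and 48.2 FPKM in mrpl1-1 and 39.8, 35.5 and 47.4 FPKM in wild type. All mrpl1-1 libraries thus lay above the others in the GH3 sum, with mrpl1-1 replicate 3 above wild-type replicate 3 by a narrow margin.

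The carriers gave a different order. The PIN genes summed to 200.4, 219.4 and 190.9 FPKM with doxycycline, 173.5, 158.7 and 188.6 FPKM in mrpl1-1 and 199.1, 191.5 and 172 FPKM in wild type. The AUX/LAX genes summed to 83.1, 100.8 and 97.1 FPKM with doxycycline, 122.5, 110.9 and 90.6 FPKM in mrpl1-1 and 94.4, 102.8 and 92.0 FPKM in wild type. For the PIN sum the doxycycline and mrpl1-1 libraries did not overlap, and for the AUX/LAX sum all groups did.

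**Figure D4:**
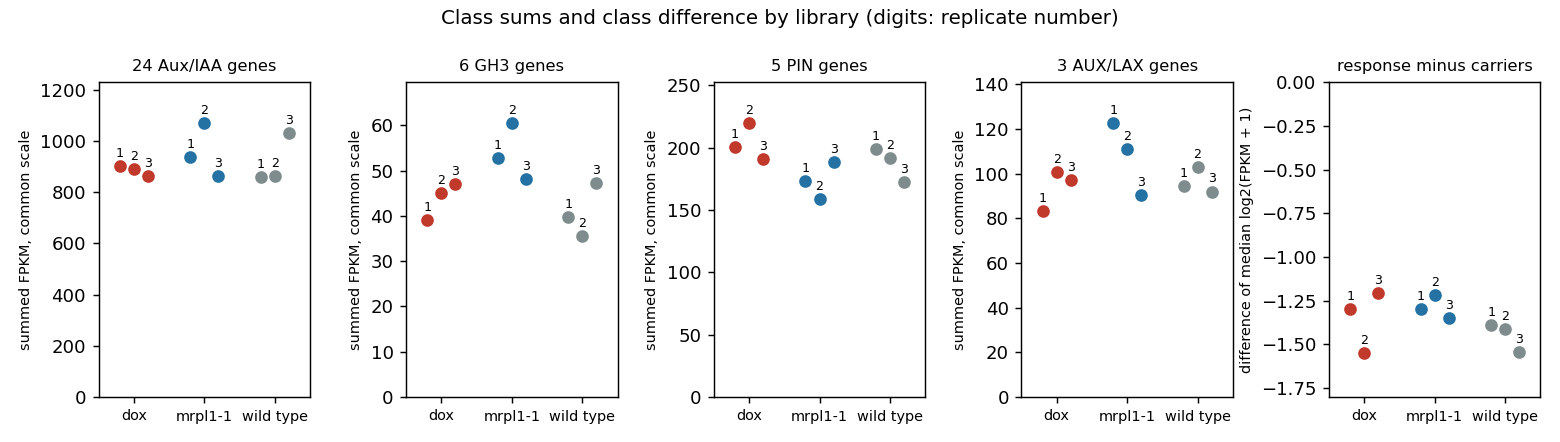
Summed FPKM of the 24 Aux/IAA, 6 GH3, 5 PIN and 3 AUX/LAX genes and, on the right, the difference of class medians in log2(FPKM + 1), by library for doxycycline, mrpl1-1 and wild type; digits beside points are replicate numbers. The GH3 sum is highest in mrpl1-1, at 48.2 to 60.5 FPKM, and wild-type replicate 3 and mrpl1-1 replicate 2 carry the highest Aux/IAA sums.

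Members also shared features that the families alone do not set. The 16 members with either auxin element upstream, of which 15 were tested, had a median log2 fold change of -0.01 with doxycycline against wild type, beside -0.05 for the 20 tested members without one. In mrpl1-1 against wild type these medians were 0.06 and 0.01, and with doxycycline against mrpl1-1 they were -0.18 and -0.01. In the genome 3 pairs of Aux/IAA genes were neighbours on opposite strands with no protein-coding gene between them: IAA3 and IAA17, 6388 bases apart on chromosome 1, IAA2 and IAA7, 12510 bases apart on chromosome 3, and IAA14 and IAA1, 10732 bases apart on chromosome 4. IAA14 and IAA3, the partners of IAA1 and IAA17, showed no gap between groups. IAA14 had 8.21, 7.25 and 10.2 FPKM with doxycycline, 8.44, 9.63 and 9.13 FPKM in mrpl1-1 and 8.93, 8.70 and 6.03 FPKM in wild type. IAA3 had 7.06, 8.22 and 5.82 FPKM with doxycycline, 9.68, 5.66 and 9.83 FPKM in mrpl1-1 and 6.82, 11.7 and 7.90 FPKM in wild type.

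The spread between replicates set how small a difference could be seen. For the 22 members at 10 FPKM or more the median coefficient of variation was 8.53% with doxycycline, 15.2% in mrpl1-1 and 9.57% in wild type, beside 8.60%, 18.5% and 14.2% over 10136 genes. IAA19, an auxin-induced repressor of hypocotyl tropisms, showed the limit at low levels. It had 5.03, 2.12 and 2.67 FPKM with doxycycline, 2.46, 6.47 and 2.87 FPKM in mrpl1-1 and 2.71, 5.22 and 0.717 FPKM in wild type, from an estimated 1.98 to 31.7 reads. The 7 members IAA3, IAA5, IAA9, IAA10, IAA11, IAA13 and IAA27 overlapped a gene on the opposite strand. Strand use in the authors' counting is unknown, so reads from the shared stretch cannot be told apart from the partner's. The length of these stretches was not measured.

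The wider auxin pathway was read from 8 further lists of 86 loci. Loci under the minimum of 1 FPKM were not tested, IAA15, IAA31, IAA32, IAA33 and IAA34 among them. With doxycycline 8 of 13 synthesis genes, 17 of 19 SAUR genes and 2 of 6 regulators of lateral roots and root tips were tested. Of the genes tested 1 was called higher with doxycycline against wild type, where 0.184% of all genes were called in either direction. It was ABCB4 (AT2G47000), an auxin transporter of the ABC family known from root hairs. ABCB4 had 38.7, 31.5 and 37.8 FPKM with doxycycline, 18.8, 12.5 and 13.0 FPKM in mrpl1-1 and 10.9, 11.2 and 13.5 FPKM in wild type. Its log2 fold change was 1.52 (SE 0.13, limma, adjusted p = 0.0128) against wild type and 1.25 (SE 0.18, limma, adjusted p = 0.0176) against mrpl1-1. The call against wild type was lost without doxycycline replicate 1 or 3 or wild-type replicate 2 (adjusted p = 0.086, 0.0858 and 0.0716), and with the replicate number as a block (0.0552). The call against mrpl1-1 was lost without doxycycline replicate 1 or 3 or mrpl1-1 replicate 2 (0.111, 0.0984 and 0.0738). Over all alternatives the value stayed between 1.28 and 1.62 against wild type.

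The receptors and the ARF factors, which stand between auxin and the response genes, gave no call. Of 6 receptors 5 lay above 0 with doxycycline against wild type, with a median of 0.15, and TIR1 had 52.7, 47.9 and 49.9 FPKM with doxycycline and 46.6, 47.0 and 41.6 FPKM in wild type. Of 15 ARF genes 11 lay above 0, with a median of 0.10 and intervals within 1 log2 unit for all 15. Among all genes 50.4% lay above 0 and 85.5% had intervals within 1 log2 unit. ARF19, an activator of lateral root formation, was at 4.66 ± 0.0732 FPKM with doxycycline and 3.48 ± 0.815 FPKM in wild type (SD, n = 3 each, limma, adjusted p = 0.645). In mrpl1-1 against wild type the ARF median was -0.10 and that of the receptors 0.17. There 11 of 15 ARF genes lay below 0 and 5 of 6 receptors above it, as did 49.9% of all genes. With doxycycline against mrpl1-1, 14 of 15 ARF genes and 1 of 6 receptors lay above 0, against 51% of all genes. In that comparison 4 ARF genes were higher without overlap, against 9.72% of all genes. AFB1, a receptor of fast root responses, had 27.6, 29.7 and 21.7 FPKM in mrpl1-1 and 19.9, 24.2 and 16.2 FPKM in wild type, which overlapped, at 0.38 (limma, adjusted p = 0.931), and at 0.24 without wild-type replicate 3. ARF11 had 7.82, 2.52 and 8.12 FPKM in mrpl1-1 and 6.60, 8.67 and 10.8 FPKM in wild type, at -0.53 (SE 0.37, limma, adjusted p = 0.931), and at 0.06 without mrpl1-1 replicate 2 and wild-type replicate 3. ARF4 had 15.1, 14.9 and 15.9 FPKM with doxycycline and 14.3, 6.26 and 10.5 FPKM in mrpl1-1, without overlap, at 0.59 (SE 0.24, limma, adjusted p = 0.388), and at 0.30 without mrpl1-1 replicate 2.

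Of the SAUR genes, small early auxin-induced growth genes, 12 of 17 lay below 0 with doxycycline and 13 of 16 in mrpl1-1, each against wild type, with medians of -0.16 and -0.37 and no call. Of all genes 50.4% and 49.9% lay above 0. These comparisons share the wild-type libraries, and with doxycycline against mrpl1-1 10 of 16 SAUR genes lay above 0. SAUR24 had 4.58, 6.34 and 3.99 FPKM with doxycycline and 7.89, 11.3 and 10.4 FPKM in wild type, at -0.87 (SE 0.20, limma, adjusted p = 0.259). In mrpl1-1 it was listed at 0 in replicate 1 and had 9.31 and 12.5 FPKM in the others. SAUR15, the member with the smallest p in mrpl1-1, was listed at 0 in replicate 1 and had 0.597 and 2.15 FPKM in replicates 2 and 3, against 2.02, 2.41 and 2.68 FPKM in wild type (limma, adjusted p = 0.931). SAUR63 had 8.75, 7.20 and 6.70 FPKM with doxycycline and 7.42, 21.6 and 10.2 FPKM in mrpl1-1, with overlap, at -0.60 (limma, adjusted p = 0.512), and at -0.19 without mrpl1-1 replicate 2.

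In auxin synthesis and turnover no gene passed the test. CYP79B2, which makes indole-3-acetaldoxime from tryptophan for indole glucosinolates and auxin, had 64.0, 59.1 and 66.1 FPKM with doxycycline and 89.3, 69.5 and 86.3 FPKM in wild type, at -0.36 (SE 0.12, limma, adjusted p = 0.510). UGT74E2, a glucosyltransferase acting on indole-3-butyric acid, had 39.8, 30.7 and 27.7 FPKM with doxycycline, 4.10, 6.71 and 7.29 FPKM in mrpl1-1 and 8.22, 2.37 and 11.7 FPKM in wild type. All libraries with the drug lay above the others, at 2.18 (SE 0.45, limma, adjusted p = 0.200) against wild type and 2.28 (SE 0.42, limma, adjusted p = 0.0525) against mrpl1-1. With array weights it passed in both (adjusted p = 0.0413 and 0.0337), and 6 of 20 alternatives took it past the threshold against mrpl1-1. Leaving out wild-type replicate 2 or 3 was among these (adjusted p = 0.00883 and 0.0307). ILL2, which frees auxin from amino acid conjugates, had 14.2, 15.5 and 13.2 FPKM in mrpl1-1 and 13.0, 10.8 and 10.2 FPKM in wild type, without overlap (limma, adjusted p = 0.931). YUC3, a flavin monooxygenase of auxin synthesis, stayed near the minimum, at 1.42, 0.735 and 0.103 FPKM with doxycycline and 2.29, 1.08 and 1.29 FPKM in mrpl1-1 (limma, adjusted p = 0.543).

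Among the other transport genes 11 of 12 lay above 0 with doxycycline, with a median of 0.15, and 4 were higher at an unadjusted p under 0.05, against 50.4% and 3.84% of all genes. PILS2, an auxin carrier of the endoplasmic reticulum, had 17.3, 26.2 and 19.1 FPKM in mrpl1-1 and 17.2, 15.1 and 15.2 FPKM in wild type, at 0.35 (limma, adjusted p = 0.931), and at 0.19 without mrpl1-1 replicate 2. Its relative PILS3, picked after seeing its values, had 42.9, 45.0 and 39.1 FPKM with doxycycline, 28.1, 24.0 and 29.7 FPKM in mrpl1-1 and 31.4, 24.3 and 26.2 FPKM in wild type, at 0.62 (SE 0.13, limma, adjusted p = 0.194) against wild type. Of the regulators of lateral roots and root tips 2 of 6 passed the minimum of 1 FPKM and were tested. LBD16 had 3.21, 2.22 and 2.97 FPKM with doxycycline and 1.84, 2.30 and 2.44 FPKM in wild type (limma, adjusted p = 0.748), and LRP1 had 15.2, 9.32 and 7.72 FPKM in mrpl1-1 and 6.11, 7.33 and 8.93 FPKM in wild type (limma, adjusted p = 0.931).

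AT12CYS-2 and AOX1A, genes known to be induced when mitochondria are disturbed, are set beside these values. AT12CYS-2 had 22.0, 25.4 and 10.9 FPKM with doxycycline, 18.1, 29.5 and 11.6 FPKM in mrpl1-1 and 1.69, 1.81 and 1.12 FPKM in wild type. All doxycycline and mrpl1-1 libraries lay above all wild-type libraries. AT12CYS-2 passed the test against wild type with doxycycline, at a log2 fold change of 2.94 (SE 0.30, limma, adjusted p = 0.0206). It also passed in mrpl1-1, at 2.92 (SE 0.32, limma, adjusted p = 0.0289). AOX1A had 79.3, 59.1 and 71.4 FPKM with doxycycline, 43.2, 41.6 and 41.2 FPKM in mrpl1-1 and 24.0, 22.1 and 43.5 FPKM in wild type. Its log2 fold changes of 1.26 with doxycycline and 0.54 in mrpl1-1, each against wild type, missed the threshold (limma, adjusted p = 0.188 and 0.931), and mrpl1-1 overlapped wild type.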

How the data were processed

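The values are FPKM that the authors deposited in 2 tables of 33557 loci, 1 with doxycycline and wild type and 1 with mrpl1-1 and wild type. Cufflinks 2.2.1, FastQC 0.10.1 and TAIR10 are named in the submitters' processing notes. No aligner or strand setting is given in the sources used here. The wild-type columns of the tables were the same libraries up to a factor of 0.94057, 0.94058 and 0.94147. FPKM are not counts, so no count test was run. Depth was estimated from the steps between low values of 590 genes and assumes full transcript lengths.

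Log2(FPKM + 1) of genes averaging 1 FPKM or more was tested two-sided in R 4.3.3 by limma 3.58.1 (trended prior, Benjamini-Hochberg over all genes, 0.05). Comparisons with wild type stayed within 1 table, and doxycycline against mrpl1-1 was fitted over 9 libraries on the common scale. The fit was tested on simulated data.

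The design text states biological replicates without naming cultures, so p-values measure the spread between these samples. The members, lists, tests and markers were chosen with earlier results of these data known. Genes named were the 3 Aux/IAA, 2 GH3 and 2 carrier genes with the smallest p in each comparison, the 2 most abundant of each class in wild type, and, from each other auxin list, its called genes or, with none called, the gene with the smallest p. The markers and the AT12CYS-2 and AOX1A checks came from lists of their own, and the remaining genes named were picked after their values were known.

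Coordinates and promoters came from RefSeq TAIR10.1, which matched 32810 loci. The deposited tables give no coordinates. Values of 1 member are not reported here, and counts and sums over the classes include it. Alternatives were each library left out, pseudocounts of 0.1 and 5, no filter, a 5 FPKM filter, quantile normalization, median-ratio rescaling, a replicate block, array weights, no trend and mutant columns as deposited. Fits without both libraries that stood apart were added after the data were seen. Doxycycline against wild type holds no mrpl1-1 library, so there this fit only repeats the one without wild-type replicate 3.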

Additional observations from a re-analysis of the deposited data

How the results depend on the processing

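No auxin member was called under any alternative run, in any of the 3 comparisons. Of the named genes' other values, 706 kept their direction and side of the threshold, 7 crossed upward, 7 crossed downward and 1 reversed: ARF11 in mrpl1-1 against wild type, at -0.53 in the fit as reported and 0.06 without both libraries that stood apart. The count of genes called moved more, and the cause was not tested. For doxycycline against wild type (35) it was 20 with no filter, 21 without trend and 126 with array weights. It ran from 9 to 91 on leaving out 1 library, and was 9, 15 and 10 without doxycycline replicates 1, 2 and 3 and 23, 13 and 91 without wild-type replicates 1, 2 and 3. For mrpl1-1 against wild type (7) it was 4 with a pseudocount of 5, 4 with no filter, 2 with a filter of 5 FPKM and 18 with array weights, and ran from 5 to 11 on leaving out 1 library, 11 without mrpl1-1 replicate 3. For doxycycline against mrpl1-1 (70) it was 191 with array weights and ran from 17 without doxycycline replicate 1 to 197 without mrpl1-1 replicate 3. It was 41 and 25 without doxycycline replicates 2 and 3, 33 and 30 without mrpl1-1 replicates 1 and 2, and 150 without wild-type replicate 3.

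The difference of response and carrier medians was -0.028 with doxycycline against wild type. On leaving out 1 library it ran from -0.135 (without wild-type replicate 2) to 0.142 (without wild-type replicate 3). In mrpl1-1 against wild type it was -0.008 and ran from -0.111 (without wild-type replicate 1) to 0.21 (without wild-type replicate 3). It was 0.15 without both libraries that stood apart.

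Whether replicate numbers pair the samples was looked at through correlations, which cannot decide it with 3 libraries a group. Same-numbered deviations from the group means correlated at -0.03, 0.0817 and 0.0622 for doxycycline and wild type, and at -0.0756, 0.0279 and -0.07 for mrpl1-1 and wild type. Differently numbered ones ran from -0.0972 to 0.0225 and from -0.0356 to 0.115. With the replicate number as a block 7, 6 and 42 genes were called in the 3 comparisons, ABCB4 with doxycycline had adjusted p = 0.0552, and 0 members were called. With 3 libraries a group and an estimated 3.14 to 8.13 M reads, members below a few FPKM rest on few reads.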
